A study of Oryza sativa with 12 samples.

Results

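Abscisic acid receptors of the PYR/PYL/RCAR family were followed in leaves of rice (Oryza sativa). The members were 10 loci, taken by their identifiers from the 55986 entries of each count file: LOC_Os10g42280, LOC_Os06g36670, LOC_Os02g13330, LOC_Os01g61210, LOC_Os05g39580, LOC_Os03g18600, LOC_Os02g15640, LOC_Os02g15620, LOC_Os05g12260 and LOC_Os06g33640. Numbering of this family differs between publications and the files hold no gene names, so each receptor is called by its locus, whose identifier also gives the chromosome. The libraries came from messenger RNA of the cultivar IAPAR9, as wild type or as idr1-1, 1 mutant line in that cultivar whose lesion the study is known to place in RGA1, the G protein alpha subunit. Plants were at the five-leaf stage, 5 weeks old, and grew in concrete tanks. They either had no stress (control) or dried until soil moisture was 10% (drought). Each genotype was sampled in both treatments, with 3 biological replicates for each of the 4 groups, 12 libraries in all.

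Abscisic acid is the hormone that plants accumulate when water is short, and it closes stomata and turns on protective genes. As worked out mainly in Arabidopsis, its receptors are small soluble proteins that bind the hormone in a pocket and then grip and inhibit clade A protein phosphatases 2C. These phosphatases otherwise keep SnRK2 kinases switched off. Freed kinases phosphorylate bZIP transcription factors, which bind promoters of genes such as dehydrins. The receptors therefore stand at the head of the pathway and the phosphatases act as its brake.

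Library totals ran from 19100254 to 25109639 counts. RGA1 (LOC_Os05g26890) was at 11.1 to 14.1 CPM (counts rescaled for the size of each library) in the 6 idr1-1 libraries and at 23.9 to 31.5 CPM in the 6 wild type libraries, so the genotype labels fitted this gene. The leaf label was met by 5 markers of leaf photosynthesis, which summed to 29695 CPM or more in every library, while the shoot apex markers OSH1 and OSH15 had 1 count in all and the root transporter LSI2 had 0. Another root transporter, LSI1, was present at 8.75 to 19.7 CPM by group mean. Replicate 3 of drought-stressed idr1-1 stood apart. Its profile correlated at 0.966 and 0.951 (Pearson r across genes) with replicates 1 and 2, below the 0.979 of those 2 with each other and the 0.983 or more within the other groups. The main values that rest on this library are given with and without it.

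The loci differed widely in how many counts they had. Of the 10, 6 passed the filter on low counts and were tested. The other 4 had 0 to 7 counts each over all 12 libraries. LOC_Os02g15620 and LOC_Os06g33640 had 0 counts in all 12 libraries, which allows a level of up to 0.0115 CPM (3 counts over all libraries, counting error only). LOC_Os01g61210 had 1 count in all, in a wild type drought library, and LOC_Os05g39580 had 7 counts spread over 5 libraries with at most 2 in any, a level of 0.0268 CPM (95% exact Poisson interval 0.0108 to 0.0552, counting error only). No response can be read from these 4 loci at this depth. Among the tested loci, LOC_Os06g36670 and LOC_Os02g13330 had group means between 0.471 and 1.38 CPM, and the remaining 4 between 6.39 and 85.9 CPM. CPM values are not scaled to gene length, so these levels are not ranked between loci.

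Drought lowered 3 receptor loci in wild type and the same 3 in idr1-1, and raised none (0) in either genotype. The fall was largest at LOC_Os03g18600, to 18.9% of the control level in wild type and 22.6% in idr1-1. It was smaller at LOC_Os02g13330 (40.6% and 46.1%) and at LOC_Os10g42280 (64.0% and 75.7%). These calls are from edgeR's quasi-likelihood test with adjusted p-values over all 22833 genes tested and a threshold of 0.05. Against this background 43.9% of all tested genes were called in either direction in wild type and 35.6% in idr1-1. A count of 3 of 6 tested loci called is not far from those shares. All 3 were lower, where 21.5% and 17.6% of all tested genes were called lower and 22.4% and 18% higher. The list itself was not tested against these shares. The median log2 fold change over the 6 was -0.53 in wild type and -0.42 in idr1-1, beside 0.00 and 0.01 over all genes. Without idr1-1 drought replicate 3, 2 of 6 were called lower in idr1-1 and their median was -0.31 over the 6. In whole leaves, fewer cells of a type and less RNA per cell cannot be told apart.

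LOC_Os03g18600, on chromosome 3, carried the widest change. In wild type control leaves it was at 37.4, 35.1 and 28.9 CPM in replicates 1 to 3, and in wild type drought leaves at 7.06, 4.65 and 7.47 CPM. The idr1-1 control libraries were at 37.2, 36.3 and 44.7 CPM and the idr1-1 drought libraries at 10.6, 9.33 and 6.77 CPM. Every drought library of either genotype lay below every control library, with a wide gap between them. The log2 fold change was -2.41 in wild type (SE 0.20, adjusted p = 3.9e-06) and -2.15 in idr1-1 (SE 0.20, adjusted p = 1e-05). Only 2.54% of all tested genes had a lower log2 fold change in wild type, and 2.06% in idr1-1. Without idr1-1 drought replicate 3, the lowest of its group, the idr1-1 value was -1.99 (adjusted p = 9.8e-06).

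LOC_Os10g42280, on chromosome 10, fell by less. Its levels were 24.5, 28.0 and 24.9 CPM in wild type control and 16.2, 15.2 and 18.2 CPM in wild type drought. In idr1-1 they were 26.1, 22.5 and 25.2 CPM in control and 19.5, 19.2 and 17.1 CPM in drought. Here too the 6 drought libraries all lay below the 6 control libraries, although the gap between 19.5 and 22.5 CPM was narrow. The log2 fold change was -0.64 in wild type (SE 0.10, adjusted p = 0.00033) and -0.40 in idr1-1 (SE 0.10, adjusted p = 0.008; -0.35 and adjusted p = 0.02 without idr1-1 drought replicate 3). The 95% intervals of its wild type change (-0.86 to -0.43) and of that of LOC_Os03g18600 (-2.84 to -1.97) did not overlap.

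LOC_Os02g13330, on chromosome 2, fell from a low level. Wild type control libraries were at 1.19, 0.990 and 1.35 CPM and wild type drought libraries at 0.383, 0.620 and 0.410 CPM. The idr1-1 control libraries were at 1.92, 1.43 and 0.801 CPM and the drought libraries at 0.643, 0.778 and 0.493 CPM. The drought and control ranges did not overlap in either genotype, but in idr1-1 the lowest control library (0.801) nearly met the highest drought library (0.778). The log2 fold changes were -1.30 (SE 0.35, adjusted p = 0.011) and -1.12 (SE 0.35, adjusted p = 0.026). These rest on few counts, 78 against 34 summed over 3 wild type libraries and 84 against 40 over 3 idr1-1 libraries. Only 1 wild type drought library reached the 0.454 CPM that the filter asks of 3 libraries, so this locus could not have been tested on that group alone. The idr1-1 call was lost without idr1-1 control replicate 1 (log2 -0.80, adjusted p = 0.13), idr1-1 control replicate 2 (adjusted p = 0.064), idr1-1 drought replicate 1 (0.062) or idr1-1 drought replicate 3 (0.072), and when the 2 idr1-1 groups were fitted alone (0.077).

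**Figure D1:**
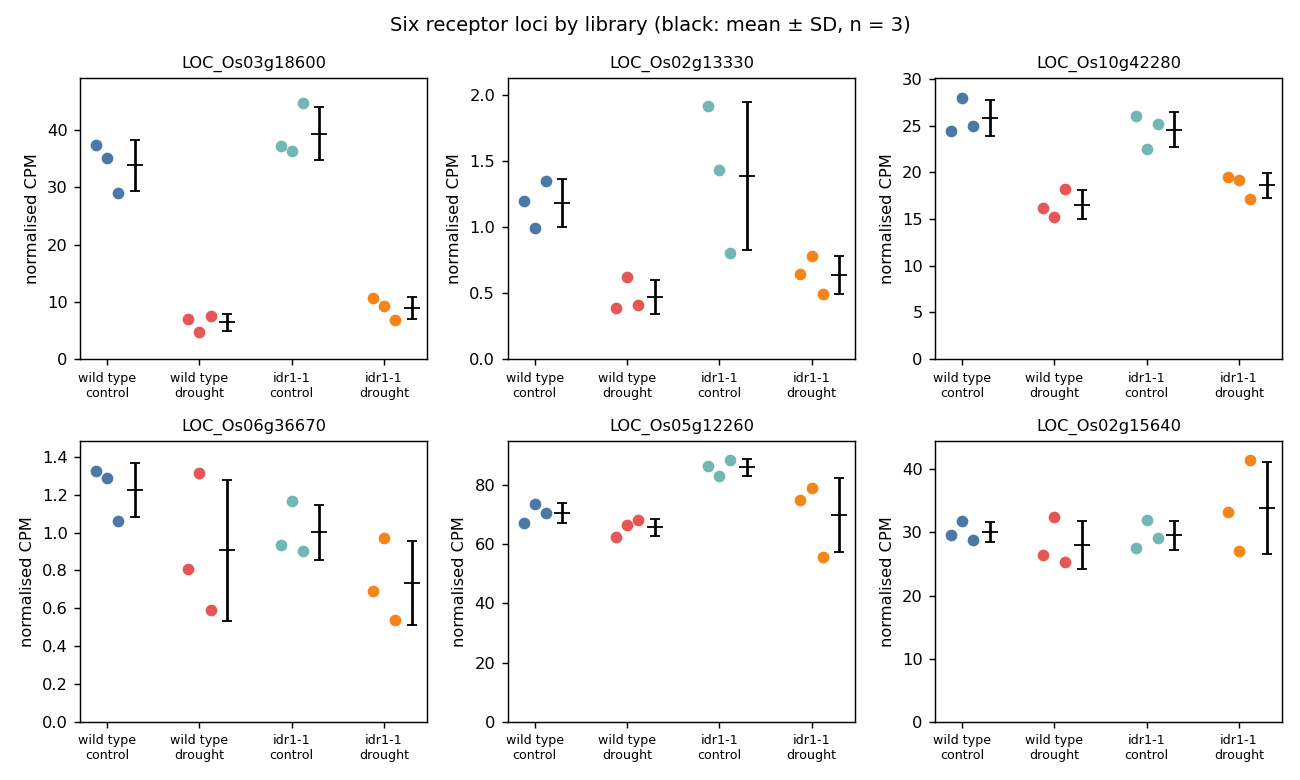
Normalised CPM (linear axis from 0) of the 6 tested receptor loci in each of the 12 libraries; points are libraries, drawn in replicate order, and black bars show mean ± SD of 3. LOC_Os03g18600 drops from 28.9 to 44.7 CPM in control leaves to 4.65 to 10.6 CPM in drought leaves, while LOC_Os02g15640 overlaps between all 4 groups.

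The other 3 tested receptors did not pass the test for drought in either genotype. LOC_Os05g12260, on chromosome 5, had control levels of 67.0, 73.7 and 70.5 CPM in wild type and 86.5, 82.9 and 88.3 CPM in idr1-1. Under drought it was at 62.5, 66.5 and 68.1 CPM in wild type and at 75.0, 79.1 and 55.6 CPM in idr1-1. Wild type ranges overlapped between treatments, and in idr1-1 every drought library was below the control libraries, with replicate 3 far below the rest. The log2 change in wild type was -0.10 with a 95% interval of -0.35 to 0.15 (adjusted p = 0.51). In idr1-1 it was -0.30, with an interval of -0.55 to -0.04 (adjusted p = 0.065), and -0.16 without replicate 3 (adjusted p = 0.11). That call moved with the method: with library size alone the change was -0.35 (adjusted p = 0.0064), with DESeq2 -0.29 (0.049), and without idr1-1 drought replicate 2 -0.40 (0.027).

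LOC_Os02g15640, also on chromosome 2, had no called change with drought. It was at 29.6, 31.8 and 28.7 CPM in wild type control and at 26.5, 32.4 and 25.3 CPM in wild type drought. In idr1-1 it was at 27.5, 32.0 and 29.1 CPM in control and at 33.2, 27.0 and 41.5 CPM in drought, the last value again from replicate 3. All 4 groups overlapped, that of idr1-1 drought only through replicate 2. Replicates 1 and 3 of idr1-1 drought lay above every library of the other groups. The log2 changes with drought were -0.10 (95% interval -0.41 to 0.22, adjusted p = 0.61) in wild type and 0.20 (-0.12 to 0.52, adjusted p = 0.31) in idr1-1, and 0.02 in idr1-1 without replicate 3. Both intervals leave out changes as large as that of LOC_Os10g42280 in wild type (-0.64).

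LOC_Os06g36670, on chromosome 6, was too thinly covered for a narrow statement. Its levels were 1.33, 1.29 and 1.06 CPM in wild type control, 0.808, 1.32 and 0.592 CPM in wild type drought, 0.936, 1.17 and 0.901 CPM in idr1-1 control and 0.693, 0.972 and 0.538 CPM in idr1-1 drought. Control and drought ranges overlapped in both genotypes, and the sums of 3 libraries were 46 to 82 counts per group. The log2 changes of -0.43 (95% interval -1.11 to 0.26, adjusted p = 0.29) and -0.45 (-1.17 to 0.28, adjusted p = 0.33) allow both a fall by more than 1 log2 unit and a small rise.

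**Figure D2:**
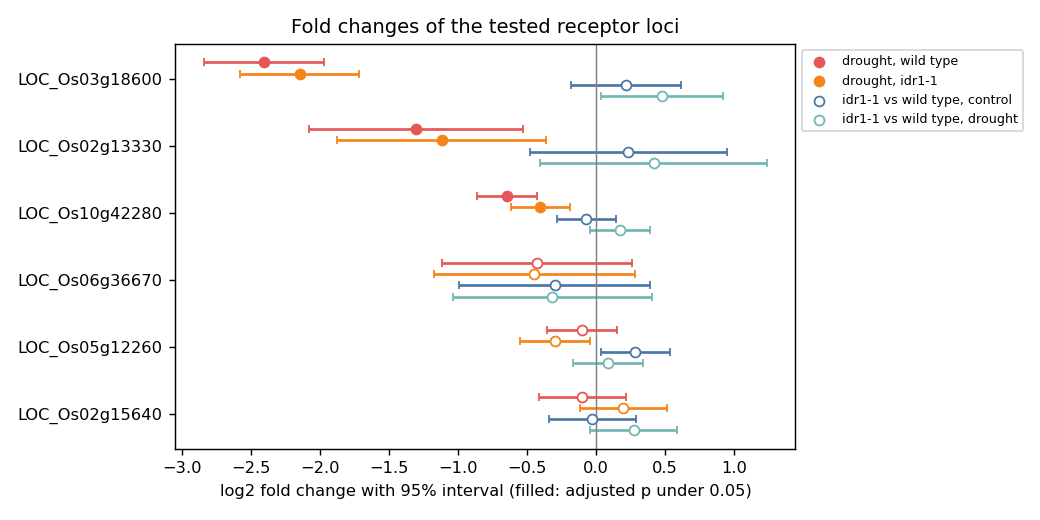
Log2 fold changes of the 6 tested receptor loci (x axis) with 95% intervals in 4 comparisons; filled points have an adjusted p under 0.05 and open points do not. The filled points are the drought responses of LOC_Os03g18600, LOC_Os02g13330 and LOC_Os10g42280 in both genotypes, and the idr1-1 against wild type points are all open.

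Whether idr1-1 changes receptor transcripts was asked in each treatment. In control leaves 0 of 6 tested loci were called, while 10.5% of all tested genes were. At an unadjusted p under 0.05 there was 1, and DESeq2 called 0. That locus was LOC_Os05g12260, whose 3 idr1-1 control libraries (82.9 to 88.3 CPM) all lay above the 3 wild type control libraries (67.0 to 73.7 CPM). Its log2 difference was 0.29 (SE 0.12, 95% interval 0.03 to 0.54, adjusted p = 0.13). The call was made when the 2 control groups were fitted alone (adjusted p = 0.038) and when idr1-1 drought replicate 3 was left out (adjusted p = 0.016). The 5 other loci had log2 differences from -0.30 to 0.24 with adjusted p from 0.46 to 0.93.

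Under drought 0 of 6 loci were called between genotypes, with 0.184% of all tested genes called. DESeq2 again called 0, and 1 locus had an unadjusted p under 0.05. It was LOC_Os03g18600, at 6.39 ± 1.52 CPM in wild type drought and 8.90 ± 1.95 CPM in idr1-1 drought (mean ± SD, n = 3), a log2 difference of 0.48 (95% interval 0.03 to 0.92, adjusted p = 0.33). Single libraries moved that value, which was 0.63 without idr1-1 drought replicate 3 (adjusted p = 0.076) and 0.29 without wild type drought replicate 2 (adjusted p = 0.7). The ranges overlapped, since idr1-1 replicate 3 at 6.77 CPM lay among the wild type libraries. Differences at the 5 other loci ran from -0.32 to 0.42, the highest at LOC_Os02g13330, where it was 0.56 without idr1-1 drought replicate 3 (adjusted p = 0.45). A test of the difference between the drought responses of idr1-1 and wild type called 0 of 6 (0.0482% of all genes), 0 at an unadjusted p under 0.05 and 0 with DESeq2. For LOC_Os03g18600 that difference was 0.26 (95% interval -0.34 to 0.85), for LOC_Os10g42280 0.24 (-0.06 to 0.55) and for LOC_Os02g13330 0.18 (-0.89 to 1.26). The difference at LOC_Os03g18600 was 0.42 without idr1-1 drought replicate 3, 0.11 without idr1-1 drought replicate 1 and 0.07 without wild type drought replicate 2. At LOC_Os02g13330 it changed sign, from -0.09 without idr1-1 control replicate 3 to 0.50 without idr1-1 control replicate 1, and at LOC_Os10g42280 it stayed between 0.18 and 0.31 without any 1 library. The intervals leave room for unequal responses, above all at LOC_Os02g13330.

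Ordered by group mean, LOC_Os03g18600 and LOC_Os02g13330 ran from idr1-1 control through wild type control and idr1-1 drought to wild type drought, and the only neighbours of opposite treatment, wild type control and idr1-1 drought, did not overlap. LOC_Os10g42280 had wild type control before idr1-1 control, with idr1-1 drought and wild type drought following. At each of these 3 loci, neighbours of the same treatment were not called different. LOC_Os05g12260 was highest in idr1-1 control, apart from all other libraries, and its wild type control, idr1-1 drought and wild type drought groups overlapped. The overlap of idr1-1 drought rests on replicate 3 at 55.6 CPM. Replicates 1 and 2 of that group, at 75.0 and 79.1 CPM, lay above every wild type library. The log2 difference of idr1-1 against wild type under drought was 0.09 at this locus, and 0.22 without replicate 3. LOC_Os02g15640 ran from idr1-1 drought through wild type control and idr1-1 control to wild type drought, and LOC_Os06g36670 from wild type control through idr1-1 control and wild type drought to idr1-1 drought, with each neighbour overlapping the next.

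Summed over the 10 loci, receptor transcripts were lower in drought than in control leaves of both genotypes, and LOC_Os03g18600 made up most of that difference. The sum was 155 to 171 CPM in the 3 wild type control libraries and 113 to 121 CPM under drought, and 176 to 189 CPM in idr1-1 control and 122 to 140 CPM under drought. These ranges did not overlap within a genotype. LOC_Os03g18600 made up 20.8% ± 2.32 of the summed CPM in wild type control and 5.43% ± 1.37 in wild type drought, and 21.6% ± 1.76 and 6.66% ± 1.03 in idr1-1 (mean ± SD, n = 3). Without it the sums were 124 to 136 and 106 to 116 CPM in wild type, and 140 to 144 and 115 to 129 CPM in idr1-1. The sum weights long and abundant transcripts more and was not tested.

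Other parts of the pathway were read beside the receptors, and no test compared them with each other. They were lists of 9 clade A phosphatases 2C, 10 SnRK2 kinases (SAPK1 to SAPK10), 6 bZIP factors, 8 loci of abscisic acid synthesis and breakdown and 5 hormone-responsive genes of dehydrins and LEA proteins. Of the phosphatases, which the receptors inhibit, 7 of 9 rose and 0 fell in wild type, beside 22.4% of all tested genes called higher. In idr1-1 8 rose and 0 fell (7 and 0 without idr1-1 drought replicate 3), beside 18% called higher. The largest log2 fold changes were those of PP2C51 in wild type (5.26, SE 1.07) and PP2C49 in idr1-1 (5.64, SE 0.41). The PP2C51 value rests on few counts, 1 over the 3 wild type control libraries against 56 under drought, a ratio of 52.3 with a 95% exact counting interval of 9.01 to 2100. In idr1-1 it had 1 count in control against 2, 5 and 24 in drought replicates 1 to 3. The medians of the list were 2.20 and 2.15, against -0.53 and -0.42 for the tested receptors. Without idr1-1 drought replicate 3, the idr1-1 medians were 2.31 for the phosphatases and -0.31 for the receptors. The summed phosphatase level went from 382 ± 69.0 to 1540 ± 221 CPM in wild type and from 316 ± 10.99 to 1290 ± 200 CPM in idr1-1. Receptor CPM per phosphatase CPM was accordingly 0.432 ± 0.0615 in wild type control and 0.0777 ± 0.0126 in wild type drought, and 0.575 ± 0.0236 and 0.104 ± 0.0127 in idr1-1 (mean ± SD, n = 3). These ratios are of transcripts not scaled to length, and the members of each sum changed by different amounts. Both their absolute size and the size of their change between groups therefore depend on the lengths. The ratios were not tested.

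**Figure D3:**
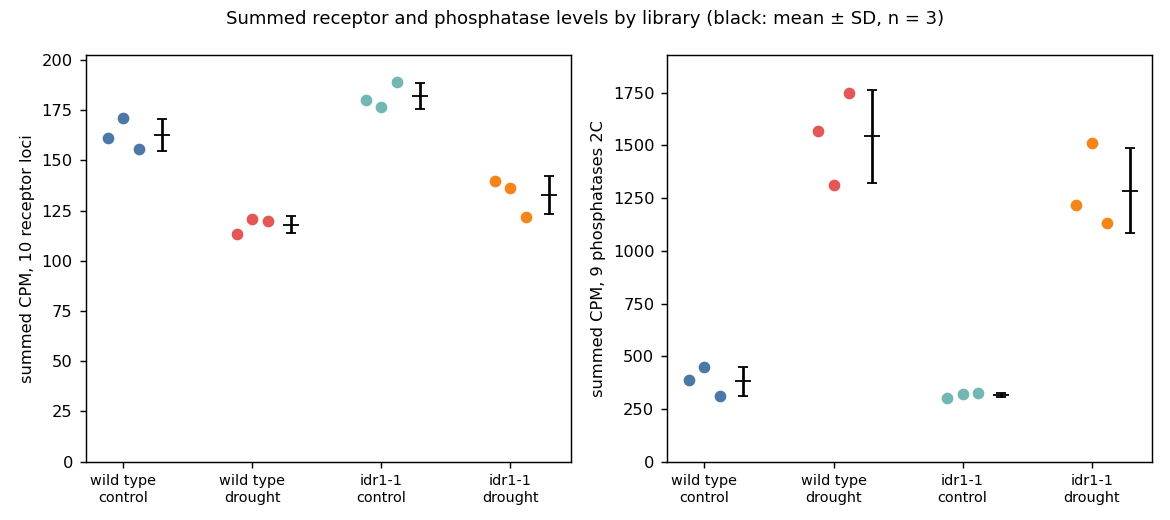
Summed normalised CPM of the 10 receptor loci (left) and of 9 clade A phosphatases 2C (right) in each library, with black bars for mean ± SD of 3; both axes are linear from 0. Receptor sums are lower in drought libraries (113 to 140 CPM) than in control libraries (155 to 189 CPM), while phosphatase sums are higher (1130 to 1749 against 304 to 448 CPM).

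Called kinases lay on both sides. In each genotype 3 of 10 SnRK2 kinases rose, 3 fell and 4 were not called (3 rose and 4 fell in idr1-1 without idr1-1 drought replicate 3), beside 43.9% of all tested genes called in wild type and 35.6% in idr1-1, and the median was -0.10 in wild type and 0.07 in idr1-1. The idr1-1 median of the kinases was 0.04 without idr1-1 drought replicate 3. SAPK9 fell most, with log2 fold changes of -3.22 (SE 0.15) in wild type and -2.93 (SE 0.15) in idr1-1. SAPK4 rose most (1.74, SE 0.27 and 1.89, SE 0.27). Without idr1-1 drought replicate 3, the idr1-1 rise of SAPK4 was 1.415, just below that of SAPK3 at 1.425. All 5 tested bZIP factors rose in both genotypes, led by LOC_Os01g64730 in wild type (2.56, SE 0.14) and by BZIP23 in idr1-1 (2.34, SE 0.13). Among hormone synthesis and breakdown loci, 4 of 8 rose and 1 fell in wild type, and 2 rose and 1 fell in idr1-1 (3 and 1 without idr1-1 drought replicate 3), so the 3 of 8 called in idr1-1 are near the share of all genes. LOC_Os07g05940 rose most (5.30, SE 0.67 and 7.04, SE 0.87), from 39 and 7 counts over the 3 control libraries of wild type and idr1-1, and LOC_Os12g42280 fell (-2.75, SE 0.21 and -1.63, SE 0.20). All 5 hormone-responsive genes rose in both genotypes. The dehydrin RAB21 was at the top, with 1 count over 3 wild type control libraries. Beside the rises of these genes and of the bZIP factors, 22.4% of all tested genes were called higher in wild type and 18% in idr1-1.

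**Figure D4:**
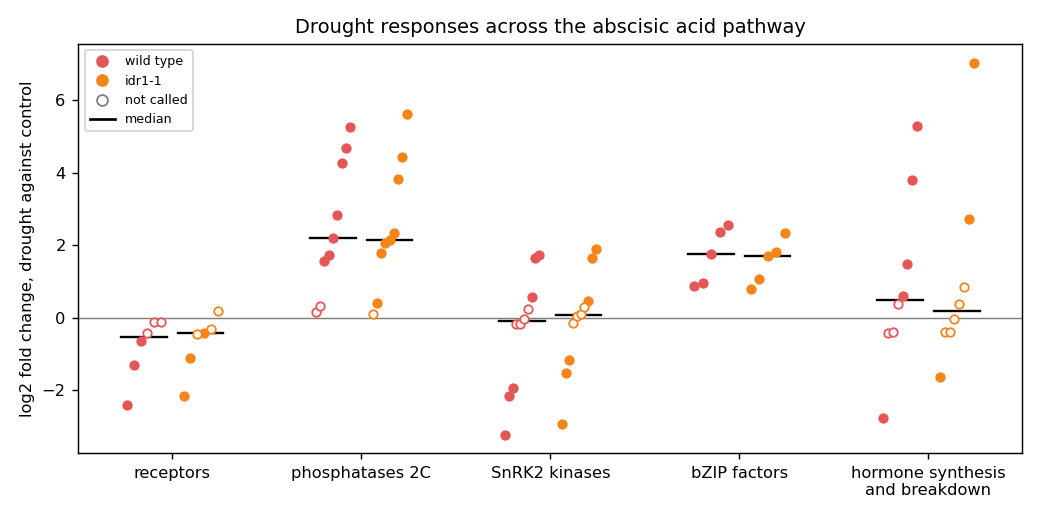
Log2 fold changes of drought against control (y axis) for tested loci of the receptors and 4 other parts of the pathway, wild type in red and idr1-1 in orange; filled points have an adjusted p under 0.05 and lines mark medians. Called receptors all lie below 0, called phosphatases and bZIP factors all lie above 0, and called kinases lie on both sides.

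Likeness to these pathway loci was measured as the Pearson r of log2 CPM over the 12 libraries, a description only, since the libraries fall into 4 groups. For LOC_Os05g12260, the receptor with the highest CPM, the most similar of 37 loci was ZEP1 (LOC_Os04g37619), a zeaxanthin epoxidase early in abscisic acid synthesis (r = 0.885). After group means were taken off, r was 0.934, but this rests on idr1-1 drought replicate 3. In that library ZEP1 was at 411 CPM against 1252 and 1325 CPM in replicates 1 and 2, and LOC_Os05g12260 at 55.6 against 75.0 and 79.1 CPM. Without it the pair had r = 0.850 over 11 libraries and 0.395 after group means were taken off. The levels of LOC_Os03g18600 and LOC_Os10g42280 had r = 0.955 with each other (0.671 after group means were taken off). Both were most similar to SAPK9 (r = 0.969 and 0.933, and 0.369 and 0.433 after group means were taken off). SAPK2 came next (r = 0.959 and 0.916, and -0.287 and -0.371 after group means were taken off). Like these receptors, both kinases had lower group means in drought than in control in each genotype. Without idr1-1 drought replicate 3, r with SAPK9 was 0.968 and 0.928 over 11 libraries. After group means were taken off, it was then 0.725 and 0.696.

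Markers of other tissues also moved between these groups. The 3 secondary-wall cellulose synthases CESA4, CESA7 and CESA9 summed to 26.6 to 38.1 CPM in wild type control, 26.3 to 43.4 CPM in wild type drought, 3.80 to 14.9 CPM in idr1-1 control and 46.8 to 72.8 CPM in idr1-1 drought. With drought 0 of 3 were called in wild type and 3 of 3 rose in idr1-1 (median log2 fold change 3.14, with and without idr1-1 drought replicate 3), and 3 of 3 were lower in idr1-1 than in wild type control leaves (median -2.06). The 2 inflorescence markers MADS14 and MADS1 summed to 1.77 to 4.20 CPM in control libraries and to at most 0.778 CPM in drought libraries, where 2 of 2 fell in wild type and 1 of 2 in idr1-1. The root transporter LSI1 averaged 16.2 and 19.7 CPM in control and 8.75 and 11.9 CPM in drought leaves of wild type and idr1-1 and was not called (adjusted p = 0.079 and 0.15). Of the leaf markers 1 of 5, RCA, rose in each genotype. Of 2 senescence markers NYC1 fell in both, and SGR was not called (adjusted p = 0.57 and 0.26). Of 2 cell division markers 0 were called in wild type, and in idr1-1 MCM2 rose (0.75, adjusted p = 0.021) and PCNA fell (-0.33, adjusted p = 0.03). Without idr1-1 drought replicate 3, 0 of these 2 rose and 1 fell in idr1-1. Beside these counts, 43.9% of all tested genes were called with drought in wild type and 35.6% in idr1-1. Between genotypes in control leaves 10.5% were called. The part of any of these markers in the receptor changes was not tested.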

How the data were processed

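The authors deposited estimated counts per gene, 1 file per library and not scaled to depth. The submitters' processing notes name HISAT2 2.1.0 and featureCounts 1.6.3; for the genome build, annotation, strand and counting settings, the sources used here give nothing. Of nonzero values 13.8% were not whole, so some reads were shared in fractions, but 0 receptor values were. Near-identical copies remain uncertain. Values were rounded to whole numbers. Rounded totals were 19100254 to 25109639, where 3 counts correspond to 0.119 to 0.157 CPM. No replicate pair was a duplicate (chi-square per gene 8.19 or more).

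The filter filterByExpr of edgeR 4.0.16 (R 4.3.3) kept 22833 genes. TMM scaling and edgeR's quasi-likelihood test were fitted over all 12 libraries, 1 mean per group (8 residual degrees of freedom), with Benjamini-Hochberg adjustment. The steps were tested on simulated counts. Group means are mean ± SD. Alternatives were library size alone, DESeq2 1.42.0, no filter, the groups of a comparison alone, replicate number as a block, and each library left out; list counts and likeness without idr1-1 drought replicate 3 were added after seeing the data.

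The receptors and lists were chosen with earlier results of these data known. All receptors are described. From each list, the called member with the largest rise and the one with the largest fall per genotype under drought are named, with the hormone-responsive genes given by RAB21, as are the nearest loci of the receptor with the highest CPM and, chosen after their values were seen, those of LOC_Os03g18600 and LOC_Os10g42280. Next nearest loci are given as well, also chosen after their values were seen. Names are published assignments: 0 locus identifiers were in the gene table (assembly ASM3414082v1), and 30 of 38 pathway names stood there on the chromosome of their locus. The others are called by locus. Receptor sequences were not used here.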

Additional observations from a re-analysis of the deposited data

How the results depend on the processing

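The called falls of LOC_Os03g18600 and LOC_Os10g42280 kept their direction and call under every alternative run, in both genotypes, and so did that of LOC_Os02g13330 in wild type. The number of receptors called was 3 in wild type drought without any 1 library and 2 to 4 in idr1-1. Between genotypes in control it was 0 to 1 without 1 library and 1 with the control groups alone. Counts over all genes moved more. For idr1-1 against wild type in control, 2391 genes (1266 up, 1125 down) became 1437 (599 and 838) with library size alone, 1112 with the replicate block and 3822 with the control groups alone, and 207 to 4557 without 1 library. Under drought 42 (10 up, 32 down) became 18 (2 and 16), 14 and 3 in the same settings, 79 with no filter, 555 with DESeq2 and 9 to 1074 without 1 library. For the difference of responses 11 (3 up, 8 down) became 2 (1 and 1) with library size alone, 0 with the replicate block, 82 with no filter, 708 with DESeq2 and 0 to 582 without 1 library. Both highest counts between genotypes came without idr1-1 drought replicate 3, and the cause of the other shifts was not tested. Replicate numbers gave no sign of pairing, since same-numbered libraries had deviations correlated at -0.316 to 0.221 and different-numbered ones at -0.204 to 0.399. With 3 libraries per group, whose deviations cancel within the group, this cannot show that the libraries were unpaired. The block changed no receptor call.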
